A study of Arabidopsis thaliana with 47 samples.

Results

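The plastid-encoded transcripts are the messenger RNAs of genes that lie in the plastid's own genome. They were taken as all probe sets whose gene ID in the authors' comparison table begins with ATCG, the prefix of the Arabidopsis plastid genome. That rule gave 72 probe sets of 22746 on the array, 1 for each of 72 gene IDs, and it uses no measured value. By function, 15 encode photosystem II subunits (psb), 5 photosystem I subunits (psa), 6 subunits of the cytochrome b6f complex (pet), 6 ATP synthase subunits (atp) and 10 subunits of the NDH complex (ndh). The large subunit of Rubisco (rbcL) adds 1, the plastid RNA polymerase (rpo) 4, and the ribosomal proteins 7 of the large (rpl) and 9 of the small (rps) subunit. A further 7 encode other proteins (matK, ycf3, ycf4, accD, cemA, clpP and ccsA). ATCG00750 and ATCG00770 carry no name in the tables used here and are given by their IDs.

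The study asked how light and the state of the plastid set transcript levels. Col-0 wild-type seedlings were grown with 0.5 mM lincomycin in the medium or without it, kept for 6 days in dim blue plus red light of 0.5 µmol m-2 s-1, and moved to 60 µmol m-2 s-1 of the same light at an age of 7 days. Whole seedlings were pooled before the move (0 h) and 0.5, 1, 4 and 24 h after it, and total RNA was hybridized to 1 array per pool. There were 8 arrays for each treatment at 0 h, 3 at 1 h with lincomycin and 4 in every other group, 47 in all, and biological replicates were grown separately. All seedlings, controls included, shared the wild-type genotype, a medium with sucrose, cold stratification, a pulse of red light, a spell of darkness and then the dim light. Lincomycin was present from sowing, so its effect at 0 h is that of the whole growth period and not of the light shift.

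Lincomycin blocks translation on plastid ribosomes. Plastid genes are transcribed by a plastid-encoded polymerase of the bacterial type, whose core subunits are the products of rpoA, rpoB, rpoC1 and rpoC2 and are themselves made on plastid ribosomes, and by a nuclear-encoded polymerase of the phage type. In plants that lack the plastid-encoded enzyme, transcripts for photosynthesis are known to be low, while those of rpo, ribosomal and some other housekeeping genes persist or accumulate. Many plastid genes are transcribed together with their neighbours. Plastid messenger RNAs mostly lack stable poly(A) tails, and the one-cycle labelling used here is primed at poly(A), so a signal reports how much of a transcript was labelled and is not a direct count of molecules. Levels below are log2(signal + 1) and are compared for the same probe set only. Because whole seedlings were used, fewer plastids or green cells and less RNA per plastid cannot be told apart.

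The arrays fell into sets by the signal of Dap, a poly(A) control added to the RNA, and by the gap between 3′ and 5′ probe sets of GAPDH. One set, called early here, holds 0 h arrays 1 to 4 with the 0.5 and 1 h arrays, and the other, called late, holds 0 h arrays 5 to 8 with the 4 and 24 h arrays. Mean Dap was 4.11 to 4.83 on early arrays without lincomycin, 8.84 to 8.99 on early arrays with it, and 7.68 to 8.42 on late arrays of both treatments. Treatments were therefore tested against each other only within the late set, and each light response only against 0 h arrays of its own set. Array 4 at 24 h without lincomycin was left out, since its median rank correlation with the other arrays was 0.618 against 0.915 to 0.949 elsewhere. On the 46 arrays 71 of the 72 probe sets lay above the array's first quartile throughout, and ndhK fell below it on 2 of the 4 arrays at 0.5 h with lincomycin (5.99 against 6.21 and 5.51 against 6.04). The number of arrays limits the precision.

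Markers of single cell types were measured in the same seedlings, and several moved with treatment in the late set. Of the mesophyll markers only CA1, a carbonic anhydrase of green tissue, had a probe set of its own, with means of 11.4 to 14.5 without lincomycin and 7.51 to 8.75 with it. Of 3 vascular markers 1 was higher with lincomycin at 0 h, 3 at 4 h, and 1 was higher and 1 lower at 24 h. Their summed signal at 4 h, on the log2 scale, was 10.73 to 10.91 without and 11.43 to 11.53 with lincomycin. Of 3 root markers 1 was higher at 0 h, none at 4 h and 1 at 24 h, with summed levels of 14.45 to 14.89 without and 14.57 to 14.93 with lincomycin over these times. Stomatal markers were lower for 0, 2 and 4 of 4, and their summed level at 24 h was 9.5 to 9.6 without and 8.3 to 8.5 with lincomycin. By 24 h of light 3 of 4 stomatal markers rose without lincomycin and 0 with it, while 2 of 3 vascular and 1 of 3 root markers fell in either treatment. The part of these cell types in the results below was not tested.

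Before the light shift, lincomycin-grown seedlings had less transcript of nearly every photosystem II gene and more of a run of ribosomal protein genes. In the limma fit across all probe sets, with Benjamini-Hochberg adjustment and a threshold of 0.05, 33 of the 72 were lower with lincomycin and 18 higher. Of all probe sets 12.2% were lower and 19.1% higher. The median over the 72 was -0.46 on the log2 scale, against 0.07 over all probe sets. At 4 h, 30 were lower and 12 higher (8.97% and 13.6% of all), with a median of -0.37, and at 24 h 33 were lower and 6 higher (11% and 21.2% of all), with a median of -0.44. At all 3 times 19 were lower, of which 12 are photosystem II genes, while 5 were higher at all 3 times (ATCG00750, rpl36, ATCG00770, rpl14 and rpl16). None was called in opposite directions at different times, and 9 passed the test at no time: rpoB, psbM, rps14, ndhK, psaI, petG, rpl32, ndhH and rps15.

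**Figure D1:**
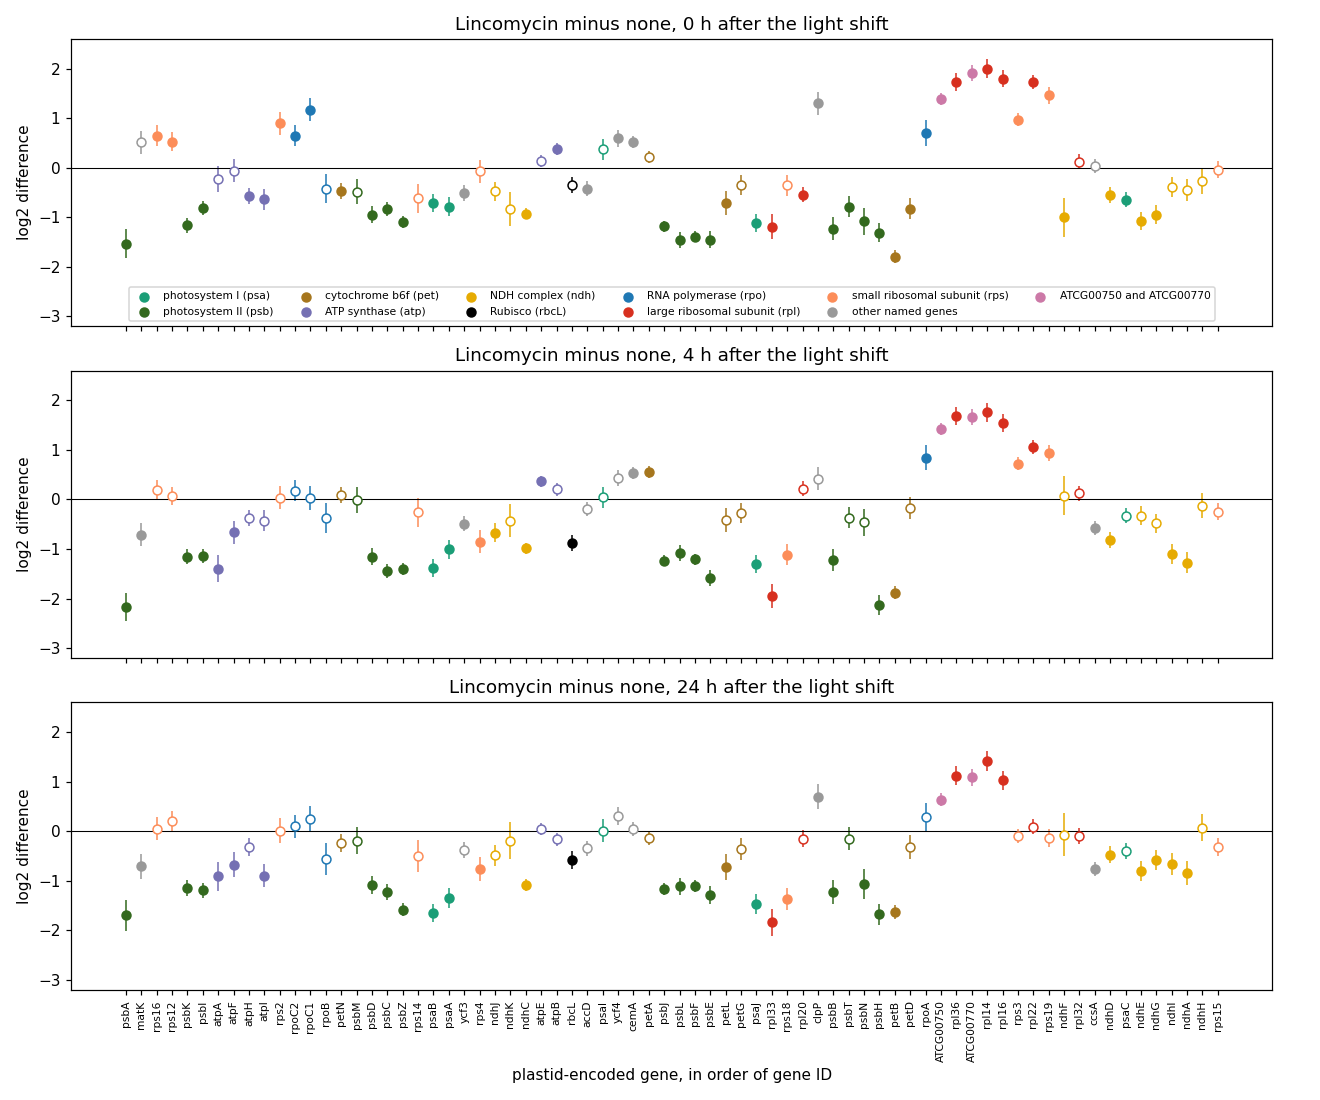
Log2 difference between seedlings with and without lincomycin for each of the 72 plastid-encoded genes in order of gene ID, at 0, 4 and 24 h (late set). Points are limma estimates, bars their standard errors, colours the function, and filled points passed the test. The run from rpoA to rps19 stands above 0 at 0 and 4 h, while most photosystem II genes lie near -1 to -2 at each time.

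Photosystem II was the group with the most members lower: 14 of 15 at 0 h, 12 at 4 h and 13 at 24 h, with medians of -1.16, -1.21 and -1.17 and none higher. The gene psbA encodes the D1 protein of the reaction centre, the subunit that is replaced most often in the light. Its levels at 0 h were 10.94, 11.31, 11.37 and 11.21 without lincomycin and 9.29, 9.68, 9.82 and 9.91 with it. The groups did not overlap, and limma gave a difference of -1.53 ± 0.29 (SE, adjusted p = 5.5e-05). At 4 h psbA read 11.34, 10.98, 11.84 and 12.07 without and 9.10, 9.49, 9.65 and 9.30 with lincomycin, a difference of -2.17 ± 0.29 (adjusted p = 3.1e-07), which was the lowest of all 72 at that time. At 24 h the difference was -1.69 ± 0.31 (adjusted p = 3.8e-05), again with no overlap.

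The other core genes of photosystem II behaved alike in sign. The difference of psbD, for the D2 protein, was -0.95, -1.15 and -1.08 at 0, 4 and 24 h, and that of its neighbour psbC, for the antenna protein CP43, was -0.84, -1.44 and -1.23. For psbB, which encodes the antenna protein CP47, it was -1.23, -1.22 and -1.23. The 4 adjacent genes psbE, psbF, psbL and psbJ, the first pair of which encodes cytochrome b559, were lower by -1.45, -1.39, -1.45 and -1.18 at 0 h and between -1.59 and -1.09 at 4 h. The SEs of these 4 were between 0.11 and 0.17. The exception was psbM, a small subunit, at -0.48 ± 0.26 (adjusted p = 0.16) at 0 h, with overlapping groups. Besides psbM, psbT and psbN did not pass at 4 h (-0.37 and -0.46), and psbT did not pass at 24 h (-0.15).

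Of 6 pet genes, 4 were lower at 0 h, 1 at 4 h and 2 at 24 h, and only petB at all 3 times. The gene petB encodes cytochrome b6 and had the lowest difference of all 72 at 0 h. Its levels at 0 h were 14.08, 13.78, 14.07 and 13.57 without lincomycin against 11.69, 12.15, 11.88 and 12.59 with it. That is a difference of -1.80 ± 0.13 (adjusted p = 1.3e-13), followed by -1.88 at 4 h and -1.63 at 24 h, each with no overlap. Its neighbour petD, for subunit IV of the same complex, was lower at 0 h (-0.82 ± 0.22) but not called at 4 h (-0.17 ± 0.22) or 24 h (-0.32 ± 0.24). In contrast petA, for cytochrome f, was not called at 0 h (0.22) and was higher at 4 h (0.55 ± 0.12, adjusted p = 0.00079). It follows cemA, an envelope membrane protein gene, which was higher at 0 and 4 h (0.51 and 0.53), and before that ycf4, a photosystem I assembly factor gene, which was higher at 0 h (0.60).

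Photosystem I transcripts were lower for 4 of 5 genes at 0 h and 3 at 4 and 24 h. The reaction centre genes psaA and psaB were lower at every time, psaA by -0.79, -1.01 and -1.35 and psaB by -0.71, -1.38 and -1.66. The levels of psaB at 24 h were 13.37, 13.10 and 13.33 without lincomycin and 11.51, 11.37, 11.92 and 11.64 with it. The groups were separate at 24 h, whereas at 0 h 1 array with lincomycin (12.19) lay inside the range without it. The small subunit gene psaJ was lower by -1.11, -1.30 and -1.47, while psaI was not called at any time (0.37, 0.04 and 0.01). For psaC, the iron-sulphur subunit, the difference was -0.65 at 0 h (called) and -0.33 and -0.41 later (not called).

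**Figure D2:**
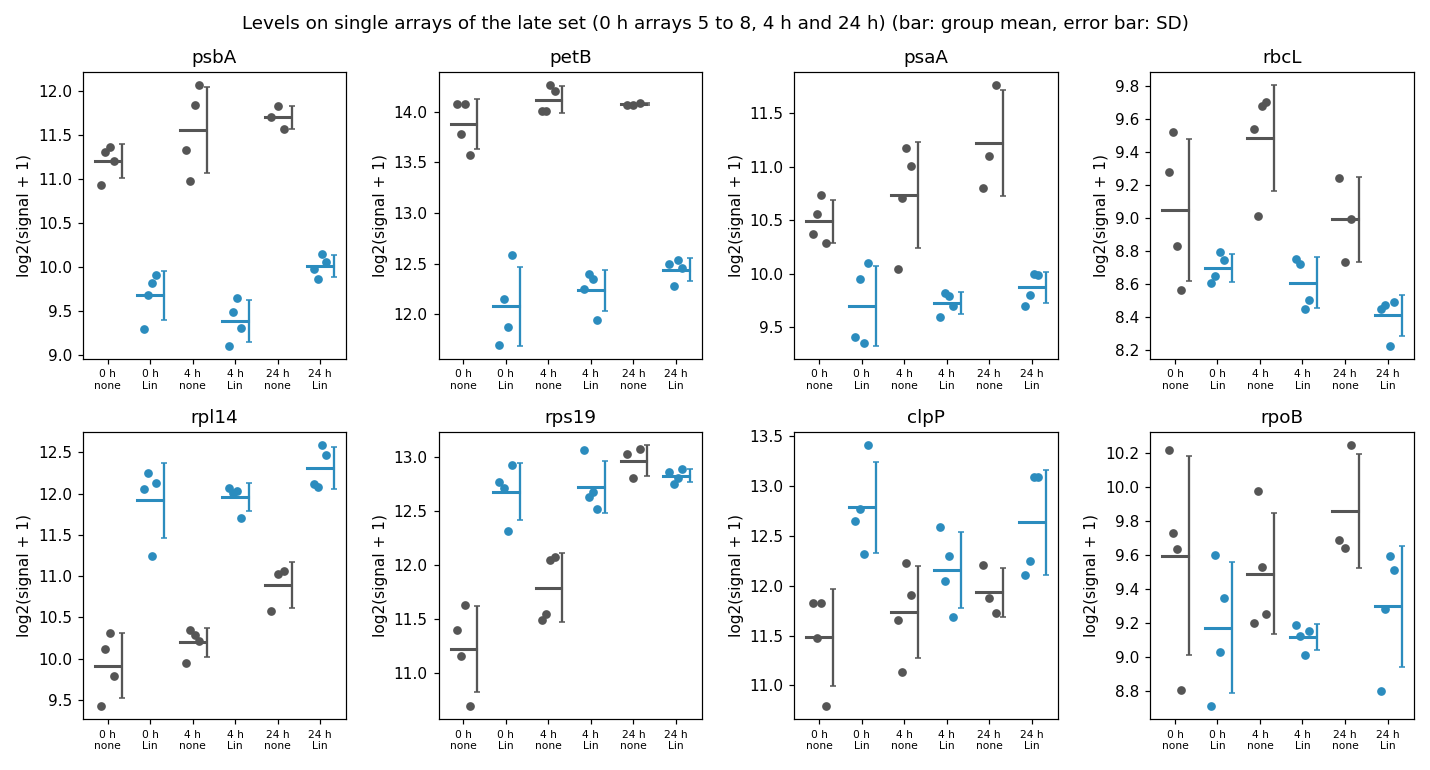
Levels, as log2(signal + 1), of 8 plastid-encoded genes on the single arrays of the late set, without lincomycin (grey) and with it (blue). Horizontal bars are group means and error bars SDs over 3 or 4 arrays. For psbA and petB the lincomycin arrays lie below all others at each time, for rpl14 they lie above, and for rps19 the groups meet at 24 h.

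Genes of the ATP synthase, the NDH complex and Rubisco differed from each other. Among 6 atp genes 2 were lower and 1 higher at 0 h, 2 and 1 at 4 h, and 3 were lower at 24 h. The gene atpB, for the β subunit, was higher at 0 h (0.37 ± 0.13) and not called at 4 or 24 h (0.20 and -0.17), and the adjacent atpE, for the ε subunit, was higher only at 4 h (0.37 ± 0.11). For atpA, the α subunit, the difference was -0.23 at 0 h (not called), -1.40 ± 0.27 at 4 h and -0.92 ± 0.29 at 24 h. The NDH complex carries electrons around photosystem I, and 5, 5 and 6 of its 10 genes were lower at 0, 4 and 24 h with none higher. Among them ndhC was lower by -0.93, -0.98 and -1.08, with SEs of 0.11 to 0.12. At 0 h the levels of ndhF spread over 7.02 to 8.57 with lincomycin and 8.41 to 9.32 without, so its call (-1.0 ± 0.39, adjusted p = 0.049) rests on overlapping groups. The rbcL levels at 0 h were 9.28, 9.52, 8.83 and 8.56 without and 8.60, 8.65, 8.79 and 8.74 with lincomycin. These overlapped (-0.35 ± 0.17, adjusted p = 0.12), and rbcL was lower at 4 h (-0.88 ± 0.17) and 24 h (-0.58 ± 0.18).

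The 4 polymerase genes did not move as one. At 0 h rpoC1 (1.17 ± 0.24, adjusted p = 0.00015), rpoA (0.70 ± 0.26, adjusted p = 0.034) and rpoC2 (0.64 ± 0.21, adjusted p = 0.018) were higher with lincomycin. The levels of rpoC1 were 9.12, 9.49, 9.71 and 8.74 without against 10.19, 10.21, 10.20 and 11.14 with lincomycin, and these did not overlap, whereas those of rpoA and rpoC2 did. In the early set at 0 h, where no test was made, the difference of rpoC2 was -0.67. By contrast rpoB, which stands beside rpoC1 on the plastid chromosome and encodes the β subunit, was at 10.22, 9.73, 9.64 and 8.80 without and 8.71, 9.60, 9.03 and 9.35 with lincomycin. It was not called at any time (-0.42, -0.37 and -0.56, SE 0.30 to 0.32). At 4 h rpoA alone was called (0.84 ± 0.26), and at 24 h none of the 4 was by limma (-0.56 to 0.28, the lowest unadjusted p being 0.088 for rpoB).

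The 7 largest rises at 0 h belonged to a run of 9 genes with consecutive IDs, from rpoA (ATCG00740) to rps19 (ATCG00820). Between them lie ATCG00750, rpl36, ATCG00770, rpl14, rpl16, rps3 and rpl22, and the named ones are neighbours in the same order in the RefSeq annotation of TAIR10.1. The run was picked after its values were seen and is described without a test of its own. All 9 were higher at 0 h (median 1.73, from 0.70 to 2.00) and at 4 h (median 1.42, from 0.72 to 1.76). At 24 h 5 were higher, with a median of 0.64 and a range of -0.14 to 1.42. The 13 other rpo, rpl and rps genes had medians of -0.04, 0.02 and -0.15, with 5 higher and 2 lower at 0 h and none higher and 3 lower at 4 h and at 24 h.

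Within this run rpl14, for a protein of the large ribosomal subunit, was the highest of all 72 at each time. Its levels at 0 h were 9.43, 10.12, 10.32 and 9.80 without lincomycin and 12.05, 12.24, 11.24 and 12.13 with it. The groups were separate, with a difference of 2.00 ± 0.19 (adjusted p = 6.2e-11), and they stayed separate at 4 h (1.76 ± 0.19) and 24 h (1.42 ± 0.20). The levels of rps19, for a protein of the small subunit, were 11.40, 11.15, 11.63 and 10.69 without and 12.76, 12.71, 12.31 and 12.93 with lincomycin at 0 h (1.46 ± 0.17, adjusted p = 7.1e-09). At 24 h rps19 read 13.02, 12.80 and 13.07 without and 12.86, 12.75, 12.81 and 12.88 with lincomycin. By then the groups overlapped and the difference was -0.14 ± 0.18 (adjusted p = 0.63). The same held for rpl22, at 1.73 ± 0.14 at 0 h and 0.08 ± 0.15 at 24 h, and for rps3, at 0.97 ± 0.13 and -0.10 ± 0.14.

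Other ribosomal protein genes went down. The gene rpl33, which lies beside psaJ, was lower by -1.19, -1.95 and -1.84 at the 3 times, the last being the lowest difference of all 72 at 24 h. Its levels at 24 h were 13.95, 13.96 and 13.84 without and between 11.78 and 12.34 on the 4 arrays with lincomycin. The next gene, rps18, was not called at 0 h (-0.36) and was lower at 4 h (-1.11) and 24 h (-1.36). Of the rps genes outside the run, rps2 (0.90 ± 0.23), rps16 (0.65 ± 0.21) and rps12 (0.53 ± 0.19) were higher at 0 h, and none of these 3 was called later.

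Among the remaining genes clpP, the catalytic subunit of the plastid Clp protease, was higher at 0 h (1.30 ± 0.23, adjusted p = 2.3e-05) and at 24 h (0.70 ± 0.25, adjusted p = 0.029) but not called at 4 h (0.42 ± 0.23). Its levels at 0 h were 11.83, 11.48, 11.82 and 10.79 without and 12.64, 12.77, 12.32 and 13.40 with lincomycin, without overlap. The gene accD, for a subunit of the acetyl-CoA carboxylase that starts fatty acid synthesis, was lower at 0 h (-0.42 ± 0.15, adjusted p = 0.026) with overlapping groups, and not called later (-0.20 and -0.35). The maturase gene matK was at 0.52 ± 0.23 at 0 h (adjusted p = 0.092) and lower at 4 and 24 h (-0.71 at both). The cytochrome assembly gene ccsA was not called at 0 h (0.03) and was lower at 4 h (-0.58) and 24 h (-0.77).

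Some measures of RNA and labelling moved with treatment in the late set. The GAPDH 3′ minus 5′ gap was 1.47 without and 1.07 with lincomycin at 0 h, 1.27 and 0.98 at 4 h, and 1.02 and 0.90 at 24 h. The same gap of actin was 2.07 and 1.83, 1.94 and 1.76, and 2.04 and 1.92 at these times. That of ubiquitin was 0.73 and 0.73, 0.77 and 0.57, and 0.90 and 0.75. The 25S ribosomal RNA probe set, which like the plastid messages is not polyadenylated, read 5.77 to 8.67 without and 8.40 to 13.5 with lincomycin at 0 h. It read 5.74 to 7.38 without and 6.19 to 7.32 with lincomycin at 4 h, and 5.98 to 7.43 and 7.58 to 8.53 at 24 h, so the treatments overlapped at 0 and 4 h and were separate at 24 h. The part of the 3′ minus 5′ gaps and of this RNA in the differences was not tested. Of 28 mitochondrial-genome genes, whose messages also lack stable tails, 1 was higher and 1 lower at 0 h (median -0.33), 1 higher at 4 h (0.08) and 5 higher at 24 h (0.37). Of all probe sets 19.1% were higher and 12.2% lower at 0 h, and 13.6% and 21.2% were higher at 4 and 24 h.

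The 0 h arrays of the early set give a second view of dim-light seedlings, but there the treatments differ in Dap as well, so lincomycin and labelling cannot be told apart and no test was made. The mean of the 25S ribosomal RNA probe set differed there too. It was 13.6, 12.6 and 12.4 without lincomycin at 0, 0.5 and 1 h, and 5.47, 3.54 and 4.05 with it. In the late set at 0 h it was lower without lincomycin (6.70) than with it (11.62). In the early set the 72 differences at 0 h had a median of -0.46 and ran from -3.13 (atpF) to 1.30 (rpl16). Of the 33 genes lower in the late set at 0 h, 27 were below 0 in the early set, 28 at 0.5 h and 30 at 1 h. Of the 18 that were higher, 12, 14 and 13 were above 0. All 9 genes of the run from rpoA to rps19 were above 0 in the early set at 0 h (0.29 to 1.30), at 0.5 h (0.56 to 1.66) and at 1 h (0.16 to 1.52). At these times 14, 13 and 14 of 15 photosystem II genes were below 0.

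**Figure D3:**
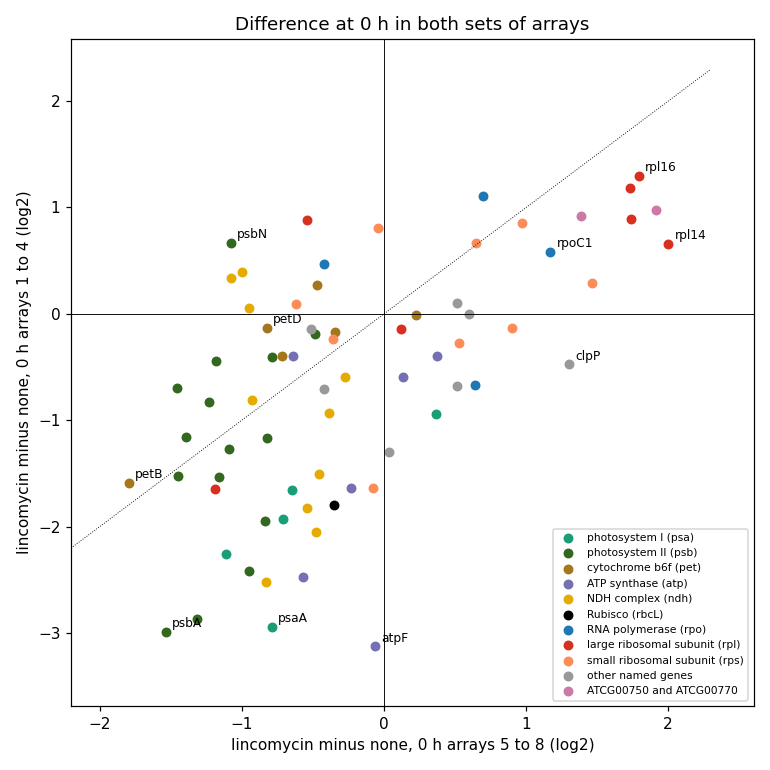
Difference between lincomycin and none at 0 h for the 72 genes, from arrays 5 to 8 (horizontal, late set) and arrays 1 to 4 (vertical, early set), in log2 units, coloured by function. The dotted line marks equal values. Points such as psaA and atpF lie far below the line. Points such as clpP and psbN have opposite signs, and rpl14, rpl16, psbA and petB keep their sign.

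Several genes differed between the sets far more than replicates did. The psaA levels without lincomycin at 0 h were 13.24, 13.25, 13.54 and 13.24 in the early set and 10.37, 10.56, 10.74 and 10.28 in the late set, and with lincomycin 10.01, 10.51, 10.40 and 10.58 against 9.41, 9.94, 9.35 and 10.09. The difference by lincomycin in psaA was thus -2.94 in one set and -0.79 in the other. For atpF it was -3.13 and -0.06, and for clpP -0.47 and 1.30, so clpP is higher with lincomycin in the late set only and no claim beyond that set is made. By contrast petB had means of 13.9 without and 12.3 with lincomycin in the early set against 13.9 and 12.1 in the late set. Over all 72, late minus early had a median of -0.19 (-3.26 to 2.19) without and 0.21 (-1.57 to 1.50) with lincomycin.

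In the first hour of brighter light few plastid-encoded transcripts passed the test. Without lincomycin none of 72 passed at 0.5 h (1.75% of all probe sets did), with 2 at an unadjusted p under 0.05 by limma, the only tool used. At 1 h 3 were higher and none lower, against 4.99% and 4.28% of all probe sets. There 14 of 72 had an unadjusted p under 0.05 by limma, and 50 differences lay above 0. These were ndhE (0.70 ± 0.19, adjusted p = 0.01), rps16 (0.66 ± 0.21, adjusted p = 0.038) and rbcL (0.52 ± 0.17, adjusted p = 0.041). The rbcL levels were 10.48, 10.45, 10.56 and 10.27 at 0 h and 10.97, 11.12, 10.72 and 11.04 at 1 h, all of the latter above all of the former. That count was 0 without array 1 of 0 h or array 1 of 1 h, 1 without array 4 of 0 h or array 2 or 4 of 1 h, and at most 4 without any single array. With lincomycin none passed at 0.5 h or 1 h (0.906% and 2.97% of all), with 2 and 1 at an unadjusted p under 0.05.

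At 4 h without lincomycin 10 were higher and 9 lower than at 0 h, against 20.9% and 20.7% of all probe sets, so a smaller share of the 72 than of the array. The largest rise was in psbC, whose levels went from 10.52, 10.73, 10.88 and 10.48 to 11.26, 11.80, 11.87 and 11.55 (0.97 ± 0.14, adjusted p = 6.5e-07). The other rises included matK (0.87), psbH (0.83), rpl33 (0.74), rpl22 (0.73), atpA (0.68), rpoC1 (0.64), psbZ (0.64), rps19 (0.57) and rbcL (0.44). Among the falls, ndhF went from 9.04, 8.57, 8.41 and 9.32 to 7.70, 7.94, 8.24 and 6.97 (-1.12 ± 0.39, adjusted p = 0.02). The others were psbT (-0.75), petD (-0.74), petN (-0.61), ndhE (-0.60), rpl20 (-0.58), ndhG (-0.50), psaC (-0.46) and petA (-0.33). Without array 4 at 4 h the calls numbered 12 in place of 19, and when only the arrays compared were fitted they numbered 9.

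After 24 h without lincomycin 25 of the 72 were higher and 2 lower, against 19.2% and 24.5% of all probe sets, with a median over the 72 of 0.33 against -0.09 over all. Among ribosomal protein genes 5 of 7 rpl and 4 of 9 rps genes rose. The largest rise of all 72 was 1.85 ± 0.15 for rpl22 (adjusted p = 6.1e-13), whose levels went from 11.44, 11.37, 11.72 and 11.23 to 13.23, 13.38 and 13.26. The rise of rps19 (1.75 ± 0.18) came next, and rps3 (1.09 ± 0.14) and rpl33 (0.99 ± 0.27) also rose, each with separate groups. Of the run from rpoA to rps19, 8 of 9 rose, with rpoA itself not called (0.42 ± 0.28). The run was picked from lincomycin differences that include the same 0 h arrays without lincomycin. Low values on those arrays would raise both results, so this count is not independent of the choice. Among photosynthesis genes psaB (0.90), psbC (0.82), psaA (0.73), psbZ (0.72), atpF (0.69), psbH (0.65), atpB (0.55), petA (0.35) and atpE (0.30) rose. The genes matK (1.16), rpoC1 (0.99), rpoC2 (0.57), cemA (0.53) and ccsA (0.52) rose as well, while psbA (0.50 ± 0.31, adjusted p = 0.22) and rbcL (-0.06 ± 0.18) were not called. The falls were ndhF (-1.10 ± 0.42) and psbT (-0.55 ± 0.23), both with overlapping groups. The 8 genes higher at both 4 and 24 h are 8 of 10 at 4 h and 8 of 25 at 24 h, and both comparisons share their 0 h arrays.

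With lincomycin the same light shift changed few plastid-encoded transcripts. At 4 h 2 were lower, clpP (-0.63 ± 0.23, adjusted p = 0.046) and ccsA (-0.45 ± 0.13, adjusted p = 0.013), and none was higher, against 11.5% and 10.3% of all probe sets, with 10 at an unadjusted p under 0.05. At 24 h 2 were higher, psbC (0.43 ± 0.14, adjusted p = 0.02) and petB (0.36 ± 0.13, adjusted p = 0.033), and none lower, against 13.1% and 17.4%, with 4 at an unadjusted p under 0.05. At 4 h the count was 0 without 0 h array 8 and 1 without 4 h array 2 or 3. At 24 h it was 0 without 24 h array 3 and 1 without 24 h array 1 or 4 or 0 h array 5, 7 or 8. The whole range over the 72 at 24 h was -0.34 to 0.43.

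**Figure D4:**
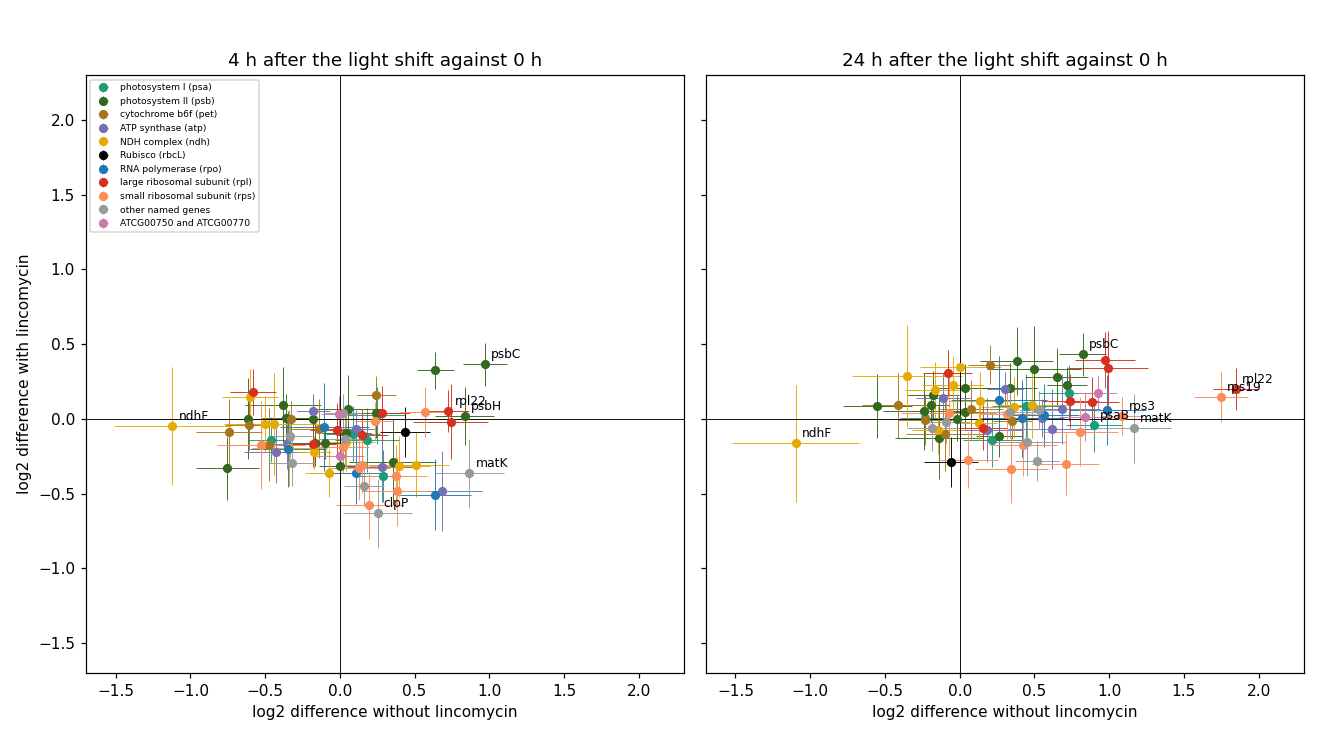
Light response of the 72 genes without lincomycin (horizontal) and with it (vertical) at 4 and 24 h, as log2 differences from 0 h with their standard errors, coloured by function. The treatments share no arrays. At 24 h points spread along the horizontal axis up to 1.85 for rpl22 and stay between -0.34 and 0.43 on the vertical one.

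The light responses themselves were tested against each other. At 0.5 and 1 h none of 72 differed (0.185% and 1.35% of all probe sets did), with 4 and 8 at an unadjusted p under 0.05. At 4 h the response with lincomycin was lower for 7 and higher for 2, against 10.2% and 8.89% of all. The lower ones were matK (-1.23), atpA (-1.17), rpoC1 (-1.15), psbH (-0.82), rpl22 (-0.68), ccsA (-0.61) and psbC (-0.60), and the higher ones rpl20 (0.76) and ndhE (0.75). That count depended on the arrays: it was 5 without array 3 or 4 at 4 h without lincomycin or array 4 at 4 h with it, 15 without array 2 at 4 h without lincomycin and 16 without array 7 at 0 h without lincomycin. It was 1 when only the arrays compared were fitted.

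At 24 h 14 responses were lower with lincomycin and none higher, against 14.4% and 15.6% of all probe sets. The count was 7 lower and 1 higher when only the arrays compared were fitted, and 4 lower and 3 higher with all 8 arrays at 0 h. The largest differences were in rpl22 (-1.65 ± 0.21, adjusted p = 5.2e-08), rps19 (-1.60 ± 0.25, adjusted p = 2.5e-06), matK (-1.23 ± 0.34), rps3 (-1.07 ± 0.19) and rps18 (-1.01 ± 0.30). Of the run from rpoA to rps19, 6 of 9 were among the 14. The lincomycin differences from which the run was picked use the same 0 h arrays, so this count is not independent support. The others were psaB (-0.94), rpoC1 (-0.93), rps2 (-0.89), ccsA (-0.80), atpB (-0.54) and psbZ (-0.49). For rps19, rpl22 and rps3 the rise without lincomycin brought the means to 12.96, 13.29 and 13.65 at 24 h, beside 12.83, 13.37 and 13.55 with lincomycin. In lincomycin-grown seedlings these 3 differed from 0 h by -0.02 to 0.20 at 4 and 24 h, and none was called. For psbA the difference between the responses was -0.16 ± 0.43 at 24 h (adjusted p = 0.84), an error too wide to show that the responses were alike.

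**Figure D5:**
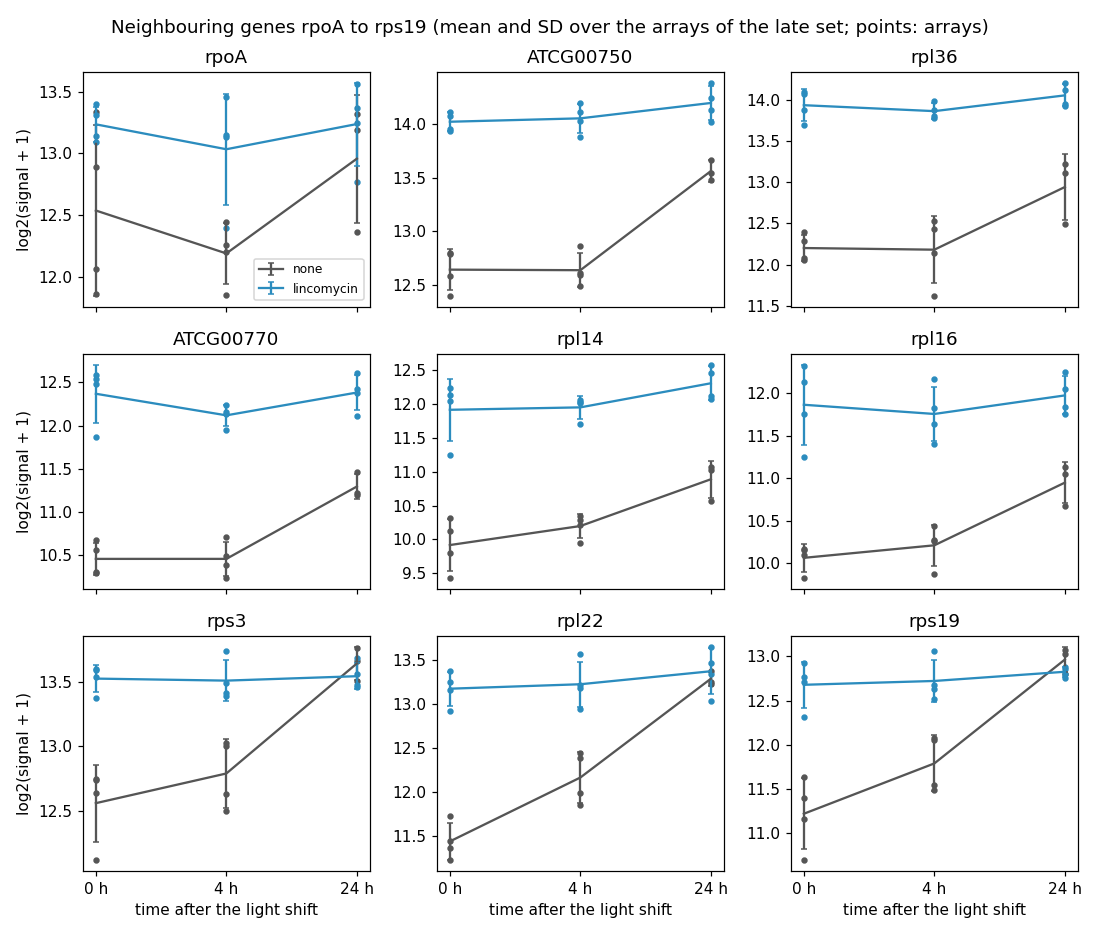
Levels, as log2(signal + 1), of the 9 genes with consecutive IDs from rpoA to rps19 over 0, 4 and 24 h of the late set, without lincomycin (grey) and with it (blue). Points are arrays, lines join group means and bars are SDs over 3 or 4 arrays. The lincomycin lines are high and flat, while without lincomycin rps3, rpl22 and rps19 rise to meet them at 24 h.

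In the late set without lincomycin the GAPDH gap moved with time too, from 1.47 at 0 h to 1.02 at 24 h, and the mean over the mitochondrial genes from 6.77 to 5.91. With lincomycin these went from 1.07 to 0.90 and from 6.50 to 6.30. The actin gap went from 2.07 to 2.04 without and from 1.83 to 1.92 with lincomycin. The ubiquitin gap went from 0.73 to 0.90 without and from 0.73 to 0.75 with it. The mean of the 25S ribosomal RNA probe set with lincomycin was 11.62 at 0 h, 6.78 at 4 h and 8.04 at 24 h. Without lincomycin it was 6.70, 6.54 and 6.73. Of 28 mitochondrial genes 11 fell at 24 h without lincomycin (median -0.82) and 4 with it (median -0.20), and none rose by limma. Of all probe sets 24.5% fell and 19.2% rose without lincomycin, and 17.4% fell and 13.1% rose with it. The part of RNA quality and of the 25S ribosomal RNA in these responses was not tested.

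Nuclear genes for partners of the plastid-encoded proteins give the context. All 12 nuclear photosystem I genes were lower with lincomycin at 0, 4 and 24 h, with medians of -1.73, -1.88 and -2.62, and so were all 10 nuclear photosystem II genes (-1.64, -1.40 and -1.94). The 3 nuclear genes of the cytochrome b6f and plastocyanin list, the 3 of the ATP synthase and the 3 measured of the NDH complex were also lower at each time. Of 23 nuclear genes for plastid ribosomal proteins 14, 9 and 23 were lower at the 3 times, with medians of -0.30, -0.26 and -1.31, and none was higher. At 24 h of light 23 of 23 of them rose without lincomycin (median 1.95) and with it (median 0.83), and the response with lincomycin was lower for 21. Of all probe sets 19.2% rose without and 13.1% with lincomycin, and the response with lincomycin was lower for 14.4%.

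Among 19 nuclear genes of plastid transcription (sigma factors, the phage-type polymerases and proteins associated with the plastid-encoded enzyme) 4 were higher and 5 lower with lincomycin at 0 h, 1 and 5 at 4 h, and 3 and 7 at 24 h. Of all probe sets 19.1%, 13.6% and 21.2% were higher at these times and 12.2%, 8.97% and 11% lower, so the counts of higher genes lie near or below the share of the array. At 0 h the lowest was SIG5 (AT5G24120), a light- and stress-responsive sigma factor, at -2.17 ± 0.13, and the highest called was FSD3 (AT5G23310), an iron superoxide dismutase of the nucleoid, at 0.68 ± 0.16. At 24 h the highest called was RPOTP (AT2G24120), the plastid phage-type polymerase, at 0.95 ± 0.29 (adjusted p = 0.011), and the lowest SIG1 (AT1G64860) at -1.43 ± 0.11. In the light 17 of 19 rose by 24 h without lincomycin and 18 of 19 with it, against 19.2% and 13.1% of all probe sets. The largest rise with lincomycin was SIG5 (3.60 ± 0.13), whose response exceeded that without lincomycin by 3.02 ± 0.18.

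The authors' deposited table gives its own log ratios, with no base stated, for 11 of these comparisons. In the authors' deposited table all 51 genes called here at 0 h, all 42 at 4 h and all 39 at 24 h between treatments had the same sign as here. In the authors' deposited table the median over the 72 was -0.54, -0.48 and -1.16 at these times. Which arrays entered its 24 h value is not stated in the sources used here, and with array 4 of 24 h kept the median here was -1.22 in place of -0.44. For the light response without lincomycin the signs in the authors' deposited table were the same for 19 of 19 at 4 h and 22 of 27 at 24 h. The genes with the opposite sign there at 24 h were both falls, ndhF (0.03) and psbT (0.08), and the rises atpB (-0.10), atpE (-0.16) and petA (-0.18).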

How the data were processed

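Total RNA of whole seedlings was hybridized to 47 one-colour ATH1 arrays, per the labels. The authors deposited 1 intensity per probe set and array, with MAS5 and GCRMA both named in the submitters' processing notes without their roles. The deposited values are linear and scaled to a common trimmed mean on each array, as read from the values themselves. The authors also deposited a table of comparisons, used here as log2 differences though its header states no base.

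Levels were taken as log2(intensity + 1). A linear model over 46 arrays in 12 cells (each group, with 0 h divided into the early and the late set) was fitted with limma 3.58.1 in R 4.3.3 to all 22746 probe sets left after 64 controls of 22810 were removed. The adjusted p was Benjamini-Hochberg over all of them in each of 15 comparisons, with a threshold of 0.05, two-sided. Array 4 of 24 h without lincomycin was left out. The fit was tested on simulated data with known changes. Gene names came from the deposited table and RefSeq TAIR10.1, which matched 70 of 72 IDs and was used for names and gene order only. Figures were drawn with matplotlib 3.10.9.

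All members could be named. Given in full were 15 set genes with a probe set (psbA, psbD, psbB, psaA, psaB, petB, rbcL, atpB, ndhF, rpoA, rpoB, rpoC1, rpoC2, accD, clpP) and, per comparison and function, the called member with the largest rise and fall. Genes outside the plastid genome were named as the largest called rise or fall of a list, or as markers. The members, the sets of arrays and the lists were chosen with earlier results of these data known. Alternatives tried were the pseudocount, a filter on dim probe sets, quantile scaling, centring on the plastid genes, another spread estimate, fits to fewer arrays, other 0 h arrays, the left-out array kept, a replicate block and each array left out in turn.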

Additional observations from a re-analysis of the deposited data

Results flagged for a closer look

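In 176 groups of 4 arrays, 7 values stood apart from the rest of their group by a gap larger than Dixon's limit, which chance alone passes in about 1 of 20 groups. Of these, 4 belong to array 4 of 24 h without lincomycin, which was left out of all fits: its mean over the plastid-encoded genes was 13.3 against a median of 11.6 for its group, petB read 14.49 against 14.08, rpoB 14.30 against 9.97 and accD 13.91 against 10.59. Without lincomycin at 0 h, array 3 of the early set had psaA at 13.54 against 13.25. With lincomycin, rpoC1 was at 11.14 against 10.20 on 0 h array 8 and at 9.53 against 10.04 on 4 h array 4.

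The light response differed between treatments, by the interaction tested with limma, for 9 genes at 4 h and 14 at 24 h. At 4 h 7 were lower with lincomycin and 2 higher, against 10.2% and 8.89% of all probe sets. At 24 h 14 were lower and none higher, against 14.4% and 15.6%. When only the arrays compared were fitted, 1 passed at 4 h and 8 at 24 h. At 4 h the response with lincomycin minus that without was -1.23 for matK, -1.17 for atpA, -1.15 for rpoC1, -0.82 for psbH, -0.68 for rpl22, -0.61 for ccsA and -0.60 for psbC. It was above 0 for rpl20 (0.76) and ndhE (0.75). At 24 h it was -1.65 for rpl22, -1.60 for rps19, -1.23 for matK, -1.07 for rps3, -1.01 for rps18, -0.94 for psaB and -0.93 for rpoC1. The other values at 24 h were -0.89 for rps2, -0.82 for ATCG00770, -0.80 for ccsA, -0.77 for rpl16, -0.75 for ATCG00750, -0.54 for atpB and -0.49 for psbZ.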

How the results depend on the processing

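The lincomycin counts of 51, 42 and 39 calls at 0, 4 and 24 h ranged over 46 to 50, 40 to 43 and 32 to 40 with single arrays left out. They stayed within 1.5 times under every alternative but 1 for which calls were counted. The exception was keeping array 4 of 24 h, which gave 31 at 0 h, moved the 24 h median from -0.44 to -1.22, and left 0 calls without lincomycin at 1 h, 6 at 4 h, 0 with lincomycin at 4 and 24 h and 1 difference at 4 h, with psbT at 0.23 at 24 h. Using all 8 arrays at 0 h mixes the sets: lincomycin at 0 h became -0.0099 for atpB and -0.014 for rpoC2. The response without lincomycin became 1.41, 0.82 and 0.93 for psaA, psaB and clpP at 1 h (21 calls), -1.17, -0.26, -0.12, -0.34 and 0.35 for psaA, rbcL, rpoC1, atpA and petD at 4 h, and -0.68, -0.0070 and -0.94 for psaA, psbC and atpF at 24 h. Calls with lincomycin became 1 at 0.5 h, 6 at 4 h and 13 at 24 h, and differences 1 at 1 h, 3 at 4 h and 7 at 24 h (4 lower, 3 higher). Fitting only the arrays compared gave 9 calls without lincomycin at 4 h, 0 and 1 with it at 4 and 24 h, and 1 difference at 4 h and 8 at 24 h (7 lower, 1 higher). Trend and robust spread gave 4 with lincomycin at 4 h. Quantile scaling gave 1 higher and 2 lower there, and 1 higher and 10 lower differences at 4 h. Centring each array on its plastid median kept the sign of 51 of 51, 37 of 42 and 36 of 39 lincomycin calls, with matK at 0.078 at 4 h, rbcL at 0.065 at 24 h, and petA at -0.032 in light without lincomycin at 24 h. With single arrays left out, calls without lincomycin ran from 0 to 4 at 1 h, 12 to 24 at 4 h and 20 to 27 at 24 h, with lincomycin from 0 to 1, 0 to 3 and 0 to 2, and differences from 0 to 1, 5 to 16 and 10 to 16. At 0.5 h they stayed at 0. A pseudocount of 16 and the dim filter kept all counts within 1.5 times. Same-numbered arrays correlated at -0.098 to 0.286. In each early pair of groups their mean lay above that of different numbers, for example 0.13 against -0.044 for 0 and 1 h with lincomycin. In the late set it lay above in some pairs and below in others. Whether the numbers pair the arrays was not tested. The replicate block gave 50, 43 and 38 lincomycin calls and 9 and 14 differences at 4 and 24 h, and the light responses at 4 and 24 h were not estimable with it. Apart from the sets and the left-out array, the cause of these shifts was not tested. Signal over background limits ndhK, below the first quartile on 2 arrays at 0.5 h with lincomycin.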
